A study of Mus musculus with 5 samples.

Results

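The genes described are 9 carriers and pumps by which the proximal tubule of the kidney moves drugs and organic ions: Slc22a6, Slc22a8, Slc22a7, Slc22a2, Slco1a1, Slc22a12, Slc47a1, Abcc2 and Abcc4. They were taken by symbol from the 32285 genes of the count matrix, and all 9 were found once. The cells came from kidneys of male C57BL/6J mice, 6 to 8 weeks old, given a sham operation or unilateral ischemia-reperfusion (UIR), in which the left renal pedicle was clamped for 35 min. UIR kidneys were taken on day 1, 3, 14 or 28, each condition is listed as 1 sample, and each kidney sample is stated to come from 3 mice. The methods describe 15 matrices in all and the deposited file held 5 libraries, so how many mice a library holds was not settled here. Cells were profiled one by one by droplet sequencing of transcript 3′ ends (10x Chromium), and transcripts were counted by unique molecular identifiers (UMIs). The deposited matrix held 5 libraries, which the suffix of each barcode tells apart. No label ties a suffix to sham or to a day, so libraries are named by number only, no value is given by time point, and no test between conditions was possible. All cells are 1 pooled sample in the comparisons below, and values within single libraries are given where stated.

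Organic anion and cation transporters take drugs, toxins and metabolites from the blood across the basolateral membrane of proximal tubule cells, and other carriers and ATP-driven pumps pass them into the urine across the brush border. Slc22a6 encodes OAT1 and Slc22a8 encodes OAT3, which exchange organic anions such as p-aminohippurate and many drugs for dicarboxylates. Slc22a7 encodes OAT2, a further organic anion transporter, and Slc22a2 encodes OCT2, which carries cations such as metformin and creatinine. On the apical side, Slc22a12 encodes the urate carrier URAT1, Slco1a1 an organic anion-transporting polypeptide, and Slc47a1 the proton-coupled cation exporter MATE1. Abcc2 (MRP2) and Abcc4 (MRP4) encode pumps that export conjugates, and Abcc4 also exports cyclic nucleotides. The proximal tubule runs from segment S1 next to the glomerulus to segment S3 in the outer medulla.

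In the GENCODE vM21 annotation of GRCm38, Slc22a8 (chromosome 19, 8591254 to 8611835, plus strand) and Slc22a6 (chromosome 19, 8618039 to 8628299, plus strand) are neighbours on the same strand, with 6203 bases and 0 annotated genes between them. Slc22a12 and Abcc2 lie on chromosome 19 as well (6535845 to 6543032, minus strand, and 43782192 to 43840740, plus strand). The others are Slc22a2 (chromosome 17, 12584132 to 12628488, plus strand), Slc22a7 (chromosome 17, 46432183 to 46438457, minus strand), Slco1a1 (chromosome 6, 141907282 to 141946962, minus strand), Slc47a1 (chromosome 11, 61343401 to 61378345, minus strand) and Abcc4 (chromosome 14, 118482692 to 118706219, minus strand). Slc22a12 overlaps Nrxn2, which is on the opposite strand, and Abcc4 overlaps Gm49033 and Gm23302 on the opposite strand. On the same strand, Slco1a1 overlaps Gm22036 and Abcc4 overlaps Mir6391. Promoter windows of RefSeq genes on GRCm38.p6, from 250 bases before to 50 bases after a start, were at hand for 7 of the 9 genes, not for Slc22a7 and Slc47a1.

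The 250 bases before the start are shown for both neighbours, Slc22a8 and Slc22a6, of which one was higher and the other lower in S3-like than in S1-like cells, and for Slco1a1 and Slc22a2, whose levels move together. The sequences are in lower case throughout, with no part marked.
Slc22a8, chr19:8592932-8593181, plus strand: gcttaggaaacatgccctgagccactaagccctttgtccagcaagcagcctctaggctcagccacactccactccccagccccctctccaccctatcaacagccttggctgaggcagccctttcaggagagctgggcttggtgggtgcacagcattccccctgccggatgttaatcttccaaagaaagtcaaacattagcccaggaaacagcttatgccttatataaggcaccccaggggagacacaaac
Slc22a6, chr19:8617746-8617995, plus strand: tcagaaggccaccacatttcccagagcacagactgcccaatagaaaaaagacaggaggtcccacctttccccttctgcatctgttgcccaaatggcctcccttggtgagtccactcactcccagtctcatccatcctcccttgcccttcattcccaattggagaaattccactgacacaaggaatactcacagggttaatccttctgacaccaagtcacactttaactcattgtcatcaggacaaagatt
Slco1a1, chr6:141946963-141947212, minus strand: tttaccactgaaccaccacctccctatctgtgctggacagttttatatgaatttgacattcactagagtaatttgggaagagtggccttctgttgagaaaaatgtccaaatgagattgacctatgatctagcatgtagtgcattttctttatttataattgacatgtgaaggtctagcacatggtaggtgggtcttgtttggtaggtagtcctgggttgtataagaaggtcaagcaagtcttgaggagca
Slc22a2, chr17:12583939-12584188, plus strand: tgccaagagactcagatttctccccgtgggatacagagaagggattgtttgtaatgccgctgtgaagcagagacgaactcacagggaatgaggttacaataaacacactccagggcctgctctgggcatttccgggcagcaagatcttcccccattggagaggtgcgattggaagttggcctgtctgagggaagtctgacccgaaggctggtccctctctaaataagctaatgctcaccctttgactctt

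In the whole windows of 300 bases, G and C made up 55.0% for Slc22a8, 50% for Slc22a6, 42.0% for Slco1a1 and 52.7% for Slc22a2, against a median of 52.7% over all 32851 windows. The sequence CAAAGTCCA or its reverse complement, which hepatocyte nuclear factor 4 binds, was in 0.475% of all windows and TATAAA on the gene's strand in 8.32%, and neither was in a window of the 7 genes. The starts used for Slc22a8, Slc22a2 and Abcc2, and that of a second Abcc4 window, lie inside the annotated spans of these genes. A search for letters is no measure of binding.

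After calling and filtering, 57483 cells were kept, 8240 to 18897 per library, with a median of 4626 UMIs. Of these, 46585 (81.0%) passed a gate on 8 proximal tubule markers, Lrp2, Cubn and Slc34a1 among them, and are called proximal tubule-like. No gene described here was a gate gene. The gate cuts a range of a score, and 713 cells lay within 10% of it. 5548 cells passed no gate and 774 were mixed. The labels give the cell type as goblet cell. The 5 goblet markers Muc2, Clca1, Fcgbp, Spink4 and Zg16 summed to 101 UMIs, or 0.316 per 1000000 UMIs (CPM) of all kept cells, with Zg16 at 0, so the cells are described as kidney cells. 350 barcode sequences occurred in more than 1 library, in 1.22% of the kept cells. Library 3 stood apart in how markers placed its cells along the tubule, as given with the values by library.

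Of the 9 genes, 8 were at least 2-fold higher in proximal tubule-like cells than in every one of the 12 other classes of 20 cells or more. Among all 12737 genes at 10 CPM or more, 4.37% were so. CPM are UMIs summed over the cells of a class and scaled to its total, with an exact Poisson interval. The intervals here and below cover counting error only, not differences between mice or cells. Slc22a6 was at 603 CPM (95% interval 599.7 to 606) in proximal tubule-like cells, against 18.3 to 77.8 CPM in the other classes. Slc22a8 was at 217 CPM (95% interval 215 to 219), against 1.93 to 35.7 CPM. The cation carrier Slc22a2 was at 236 CPM (95% interval 234 to 238), against 2.28 to 19.2 CPM. By these values it had the widest gap to its next class, 12.3-fold. This ranking depends on the next class of Slco1a1, podocyte-like cells, in which Slco1a1 had 3 UMIs. Slc22a7 was at 43.3 CPM (95% interval 42.6 to 44.1), against 0 to 5.50 CPM.

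The apical carriers and Abcc2 were likewise highest in proximal tubule-like cells. Slc22a12 was at 488 CPM (95% interval 485 to 491) in proximal tubule-like cells and 16.6 to 50.7 CPM in the others. Slco1a1 was at 124 CPM (95% interval 123 to 126), against 0 to 13.6 CPM. Its highest other class was podocyte-like cells, on 3 UMIs (95% interval 2.80 to 39.7), followed by thick ascending limb-like cells at 4.61 CPM. Slc47a1 was at 264 CPM (95% interval 262 to 266), against 7.70 to 42.1 CPM, and the export pump Abcc2 was at 279.7 CPM (95% interval 278 to 282), against 3.85 to 28.7 CPM. For 4 of these 8 genes, Slc22a6, Slc22a8, Slc22a2 and Slc47a1, the highest other class was neutrophil-like cells.

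Abcc4 was the exception. It was at 14.6 CPM (95% interval 14.1 to 15) in proximal tubule-like cells, and 7 of the 12 other classes were higher, up to 27.2 CPM (95% interval 9.97 to 59.1) in 85 podocyte-like cells. Among these 7 classes, beside that of podocyte-like cells, 95% intervals that held 14.6 CPM were those of connecting tubule-like (9.40 to 39.0), intercalated-like (10.5 to 29.8) and distal convoluted tubule-like cells (13.5 to 29.0). Of the lower classes, the intervals of fibroblast or pericyte-like (3.13 to 22.5) and B-like cells (1.49 to 21.2) held it too. Principal-like cells were at 24.6, endothelial-like cells at 23.9 and thick ascending limb-like cells at 19.0 CPM of Abcc4. T or NK-like cells were lowest, at 3.16 CPM. By value, the 4 leukocyte classes stood below all tubule classes for Abcc4, where that of B-like cells rests on 3 UMIs.

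**Figure D1:**
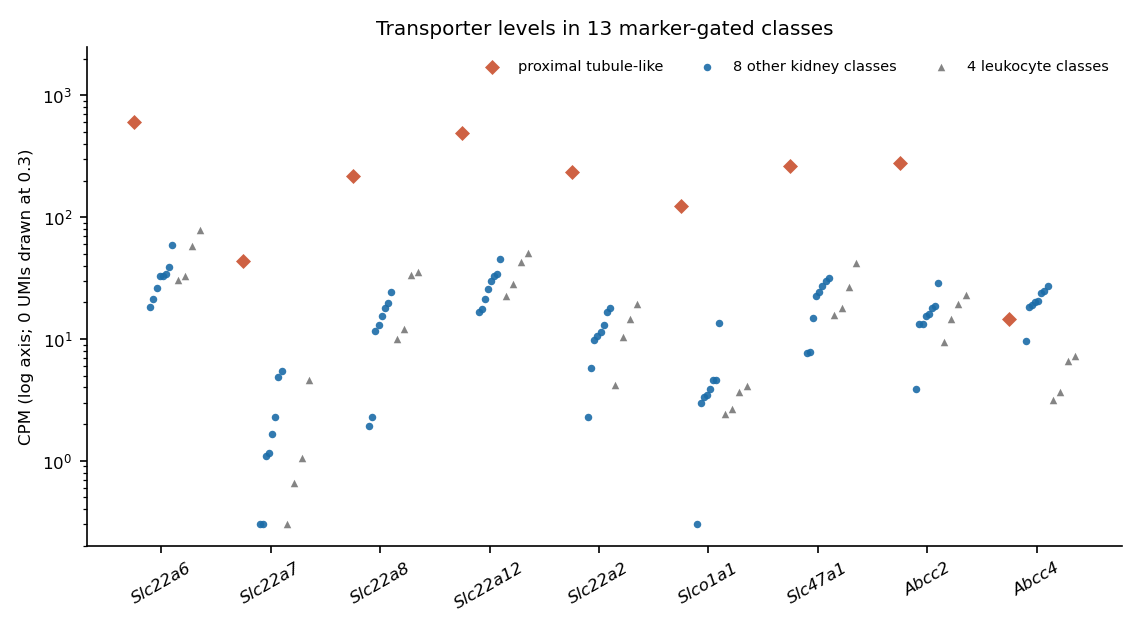
CPM of each gene (log axis) in 13 marker-gated classes, with proximal tubule-like cells as diamonds, 8 other kidney classes as circles and 4 leukocyte classes as triangles; classes with 0 UMIs are drawn at 0.3. The diamond stands above every other point for 8 genes, while for Abcc4, at 14.6 CPM, it lies among the circles.

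Leukocytes are not known for renal uptake carriers, and their values serve as the background. The exception is Abcc4, a pump that leukocytes also use, so its level there need not be background. Over 3047 leukocytes, Slc22a6 was at 37.4, Slc22a12 at 27.2, Slc47a1 at 19.6 and Slco1a1 at 3.65 CPM. In barcodes too shallow to be cells, Slc22a6 lay between 196 and 366 CPM over the libraries. With each cell thinned to 1000 UMIs, a Slc22a6 UMI was seen in 38.2% of 40915 proximal tubule-like cells and 4.34% of 2762 leukocytes, against 66.3% at a median of 5091 UMIs and 9.62% at a median of 1922 UMIs before thinning. For Slc22a7 the thinned shares were 2.95% and 0.0362%, and for Abcc4 1.46% and 0.543%. At 1000 UMIs, a proximal tubule-like cell showed a mean of 1.65 of the 9 genes and 20.3% showed none, while a leukocyte showed a mean of 0.155 and 85.9% showed none.

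Along the tubule the carriers did not move as 1 block. Each proximal tubule-like cell was placed by the share of S3 markers (Slc7a13, Cyp7b1, Atp11a and Slc16a9) among its S1 and S3 marker UMIs, where the S1 markers were Slc5a2, Slc5a12, Slc7a7, Slc4a4 and Nox4. Cells at 0.2 or less are called S1-like (19023 cells), those at 0.6 or more S3-like (8482) and those between intermediate (9523), and 9557 cells with fewer than 3 such UMIs were not placed. Within 0.05 of the limits lay 3484 and 2408 cells. In S3-like against S1-like cells, 5 of the 9 genes were at least 2-fold higher and 1 at least 2-fold lower, and the shares among all 7894 genes at 10 CPM or more were 3.85% and 6.64%. Over all these genes the median log2 ratio was −0.14, and over the 9 genes it was 1.16. Ratios have an exact conditional binomial 95% interval.

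Slc22a7 and Slco1a1 had the widest range, low in S1-like and high in S3-like cells. Slc22a7 was at 1.63, 13.9 and 158 CPM in S1-like, intermediate and S3-like cells, a log2 ratio of S3-like to S1-like cells of 6.59 (6.39 to 6.81). Along 8 steps of the S3 share from 0 to 1, its levels were 1.48, 1.0, 2.90, 8.06, 20.9, 59.3, 321 and 355 CPM. These steps pool libraries whose S3-like levels ran from 6.21 to 304 CPM, and the steps were not split by library. Slco1a1 was at 10.0, 148 and 316 CPM in the 3 ranges, a log2 ratio of 4.97 (4.89 to 5.06). Over these pooled steps it had 216 CPM at a share of 0.4 to 0.6 and its highest level, 331 CPM, at 0.6 to 0.8. Within libraries 1 to 5 the log2 ratio was 6.46, 7.03, 2.44, 5.49 and 5.20 for Slc22a7 and 3.93, 5.04, 4.52, 4.5 and 3.97 for Slco1a1. The ratio of Slc22a7 was smallest in library 3, which had 220 S3-like cells. Leukocytes were at 1.15 CPM of Slc22a7 over all libraries. In libraries 1, 2 and 3 its S1-like level (0.91, 1.00 and 1.14 CPM) was no higher than that of the leukocytes of the same library (1.43, 1.13 and 1.61 CPM). Libraries 4 and 5 were at 0.203 and 8.27 CPM in S1-like cells and at 0 CPM in leukocytes, of which they held 317 and 63. These are too few to set the background below the S1-like level. So this level was not told apart from background in any library, and the size of the ratio is not settled by these values.

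Slc22a2, Slc22a12 and Slc22a6 rose by smaller steps. The cation carrier Slc22a2 was at 128, 297 and 379.9 CPM (log2 ratio 1.57, 1.54 to 1.60) and the urate carrier Slc22a12 at 282, 653 and 715 CPM (log2 ratio 1.34, 1.32 to 1.36). Slc22a6 was at 348, 882 and 779 CPM (log2 ratio 1.16, 1.14 to 1.18), so that over all libraries the intermediate range was its highest. In libraries 1, 2 and 5 intermediate cells were above S3-like cells, and in libraries 3 and 4 below them, at 931, 974, 846, 755 and 902 CPM in intermediate and 877, 818, 957, 825 and 628 CPM in S3-like cells of libraries 1 to 5. Its pooled levels over the 8 steps were 244, 311, 602, 819, 948, 927, 556 and 415 CPM, a peak in the middle with a fall to both ends. Within the libraries its log2 ratio was 1.38, 1.27, 1.46, 1.26 and 0.74. Slc22a12 was at 1.05, 1.10, 1.35, 0.80 and 0.94 and Slc22a2 at 1.52, 1.75, 1.14, 1.15 and 1.56, all above 0.

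Slc22a8 and Abcc4 ran the other way. Slc22a8, next to Slc22a6 on the chromosome, was at 237, 263 and 136 CPM, a log2 ratio of −0.80 (−0.83 to −0.77). Pooled over the libraries it was at 214, 239, 279, 283, 240.3, 173, 64.6 and 79.7 CPM in the 8 steps. Library 3, low in this gene, gave 8727 of the 19023 S1-like cells. Within libraries 1 to 5 it was at 390, 292, 163, 242 and 353 CPM in S1-like and 368, 268, 168, 201 and 314 CPM in intermediate cells, so that S1-like cells were the higher in 4 of the 5, all but library 3. Abcc4 was at 22.3, 11.3 and 4.74 CPM, a log2 ratio of −2.24 (−2.41 to −2.07), and its level fell at every step from 0 to 0.1 onward, from 24.3 to 1.74 CPM. In S3-like cells of libraries 1 to 5 it was at 8.20, 2.76, 9.66, 7.28 and 1.80 CPM. Leukocytes of the same libraries were at 4.28, 5.09, 6.03, 9.62 and 0 CPM, by value above the S3-like level in libraries 2 and 4. No intervals are given for these leukocyte levels. Library 5 held 63 leukocytes at a median of 1609 UMIs, so its 0 is not told apart from the S3-like level. Leukocytes also use this pump, so the background part of the S3-like level and the size of the ratio are not settled by these values. Within the libraries the log2 ratio was −1.25, −1.28, −0.45, −0.83 and −1.53 for Slc22a8 and −1.66, −3.30, −1.14, −1.58 and −3.33 for Abcc4, below 0 in all 5.

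Slc47a1 and Abcc2 had the smallest pooled ratios, though in library 3 that of Slc22a8 was smaller in size than that of Abcc2. Slc47a1 was at 229, 294 and 319.6 CPM (log2 ratio 0.48, 0.46 to 0.51), with 0.35, 0.33, 0.27, 0.30 and 0.32 within the libraries. Abcc2 was at 260.3, 314 and 308 CPM (log2 ratio 0.24, 0.22 to 0.27), with 0.50, 0.25, 0.51, 0.71 and 0.38 within them. In each of the 5 libraries Abcc2 was higher in S3-like than in intermediate cells, at 306, 292, 386, 477 and 273 against 295, 267, 336, 423 and 248 CPM, against the pooled order. All 9 genes kept 1 direction of the ratio in all 5 libraries, 7 upward and 2 downward. Among all genes, 17.8% were higher and 36.3% lower in all 5.

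**Figure D2:**
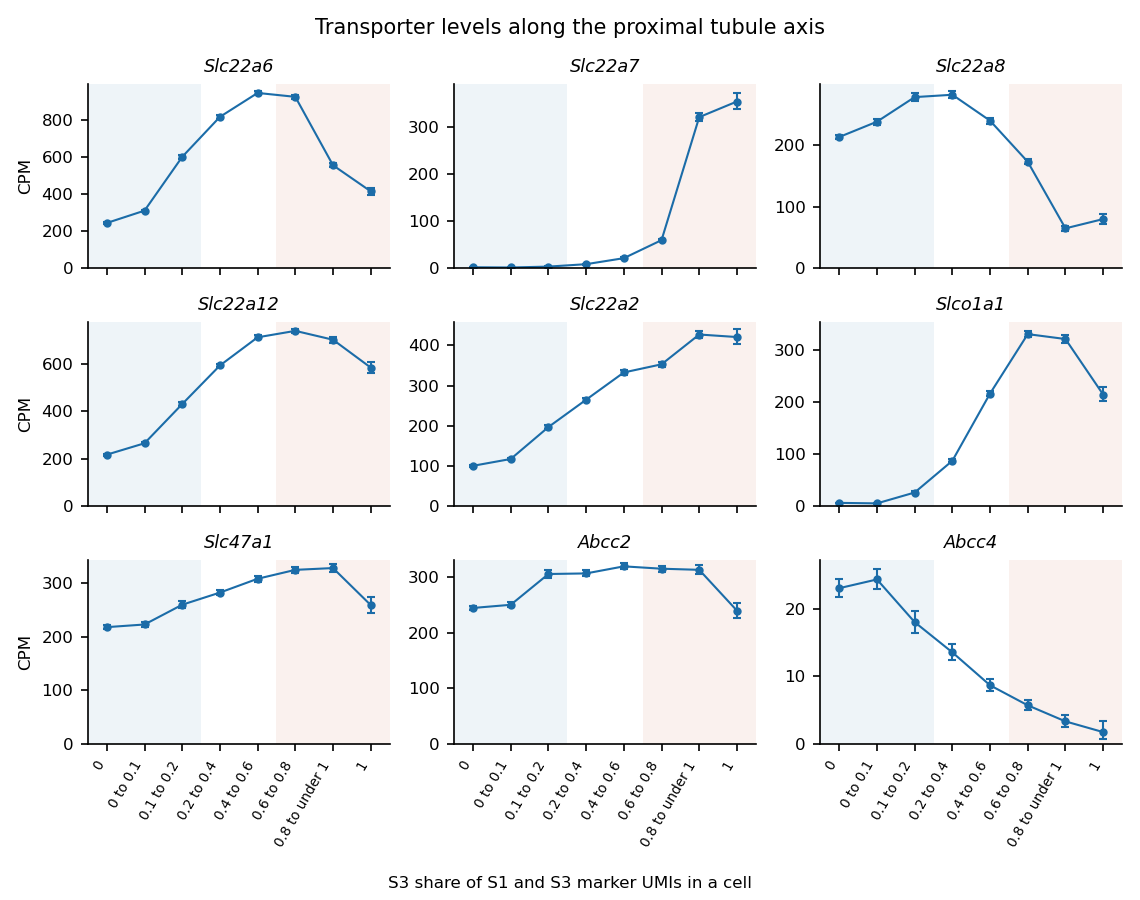
CPM of each gene in 8 steps of the S3 share of marker UMIs per cell, 5 libraries pooled, with exact Poisson 95% intervals; the S1-like range is shaded blue and the S3-like range red. Slc22a7 rises at the right end, the pooled level of Slc22a6 is highest in the middle at 948 CPM and that of Slc22a8 left of the middle at 283 CPM, while within libraries 1, 2, 4 and 5 Slc22a8 was higher in S1-like than in intermediate cells, and Abcc4 falls from left to right.

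Of 23 further organic-ion carriers, 16 reached 10 CPM in a range. In S3-like against S1-like cells 7 were at least 2-fold higher and 2 at least 2-fold lower, against 3.85% and 6.64% of all genes. The median log2 ratio of these carriers was 0.85. In libraries 1 to 5 taken one by one, 6, 7, 2, 4 and 8 were at least 2-fold higher and 2, 1, 1, 2 and 2 at least 2-fold lower, of 15, 16, 14, 14 and 17 at 10 CPM or more. The largest differences were in Slco4c1 (12.6 against 0.135 CPM), Slc22a13 (75.7 against 1.11 CPM), Slc22a19 (60.9 against 0.985 CPM) and Slc22a29 (0.833 against 11.3 CPM). Of 8 further ABC pumps, Abcg2 and Abcc5 reached 10 CPM, and neither differed 2-fold over all libraries or within libraries 1 to 4. In library 5 Abcc5 was at 12.8 CPM in S3-like and 28.1 CPM in S1-like cells, a log2 ratio of −1.14 (−1.37 to −0.90). Abcg2, a pump for urate and many drugs, was at 454 CPM in S3-like and 496 CPM in S1-like cells. Of 10 genes for energy supply, scaffold and regulators, 1 differed 2-fold, the sulfate carrier Slc13a1, at 529 CPM in S3-like and 1416 CPM in S1-like cells. Within the libraries its log2 ratio was −0.83, −0.85, −0.26, −0.47 and −1.74, past 2-fold in library 5 only. Slc13a2, a dicarboxylate carrier, was at 64.8 and 34.3 CPM, 2-fold higher in S3-like cells within library 1 alone, and the transcription factor Ppara at 38.2 and 54.1 CPM. Pooled over the libraries, injury genes were on the S1 side, with 6 of the 7 at 10 CPM or more at least 2-fold lower in S3-like cells, against 6.64% of all genes. Within libraries 1 to 5, where 6, 8, 7, 6 and 4 of the list reached 10 CPM, 2, 2, 1, 1 and 2 were at least 2-fold lower and 0, 2, 0, 0 and 1 at least 2-fold higher in S3-like cells. Among all genes, 3.54% to 6.77% were so lower and 2.39% to 4.57% so higher within single libraries. Spp1 was at 808 against 7917 CPM, Clu at 37.5 against 151 CPM, Lcn2 at 7.36 against 28.9 CPM and Havcr1 at 9.24 against 26.9 CPM. Library 3, which had the most Havcr1, gave 8727 of the 19023 S1-like and 220 of the 8482 S3-like cells.

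The levels in proximal tubule-like cells differed between libraries for some carriers by a wide margin. The highest library was at least 2-fold over the lowest for 5 of the 9 genes, against 19.4% of all 8194 genes, and library 3 was the lowest of the 5 for 7 of the 9, against 20.9%. Among the genes at 10 CPM or more within a range, library 3 was the lowest for 4 of 8 in S1-like, 5 of 9 in intermediate and 6 of 8 in S3-like cells, against 21.9%, 20.7% and 23.4% of all genes. Without library 3, or without library 5, the genes with a 2-fold range were 3 of 9. The share of all genes was not counted for these sets of libraries. S3-like cells made up 32.7%, 23.0%, 1.55%, 10.0% and 34.9% of the proximal tubule-like cells of libraries 1 to 5, so a value over all these cells also moves with the share of S3-like cells. The ranges are set by marker UMIs, and whether their shares are those of the segments themselves was not tested.

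Slc22a7 was at 40.0, 45.4, 1.93, 2.0 and 145 CPM in proximal tubule-like cells of libraries 1 to 5, with libraries 3 and 4 near 2 and library 5 highest. Within S3-like cells alone it was at 80.0, 132, 6.21, 9.10 and 304 CPM, in the same order of low and high libraries. Slco1a1 was at 201, 183, 22.0, 49.5 and 210.1 CPM over all proximal tubule-like cells and at 317, 368, 152, 162 and 326 CPM within S3-like cells. Libraries 3 and 4 were low in both genes within the S3-like range too. Slc22a12 was at 618, 597, 221, 519 and 610.5 CPM, with library 3 low. Within S1-like cells Slc22a12 was at 347, 354, 176, 395 and 367 CPM, and library 3 stood alone below the other 4.

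Slc22a6 was at 762, 693, 445, 540.0 and 647 CPM over all proximal tubule-like cells. Within S1-like cells its 5 values lay between 337 and 375 CPM, and within S3-like cells they were 877, 818, 957, 825 and 628 CPM with library 3 highest and library 5 lowest. Slc22a8 was at 275, 227, 159.6, 214 and 239 CPM over all these cells. Within S1-like cells, where it was higher than in S3-like cells, its values were 389.9, 292, 163, 242 and 353 CPM, and library 3 was lowest there as well. Slc22a2 was at 283, 267, 143, 200.3 and 328 CPM over all and between 117 and 143 CPM within S1-like cells.

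Of the exporters, Slc47a1 was at 289.7, 292, 209, 244 and 313 CPM and Abcc2 at 269.7, 258, 274, 357 and 246 CPM over all proximal tubule-like cells. Abcc2 was highest in library 4 in each of the 3 ranges, at 292 CPM in S1-like, 423 CPM in intermediate and 477 CPM in S3-like cells, and its lowest was library 5. Abcc4 was at 14.7, 13.2, 19.3, 17.0 and 6.53 CPM, lowest in library 5, and at 25.9, 27.1, 21.4, 21.7 and 18.1 CPM within S1-like cells. The genes with a 2-fold range of libraries were Slc22a7, Slc22a8, Slc22a12 and Slco1a1 within S1-like cells, Slc22a7, Slc22a8, Slco1a1 and Abcc4 within intermediate cells, and Slc22a7, Slco1a1 and Abcc4 within S3-like cells. Slc22a7 in S1-like cells (highest library 8.27 CPM) and Abcc4 in S3-like cells (highest library 9.66 CPM) did not reach 10 CPM. Without them the counts were 3 of 8, 4 of 9 and 2 of 8, against 15.1%, 17.2% and 24.4% of all genes at 10 CPM or more in the 3 ranges. Each library is 1 value, so a difference between libraries cannot be told apart from one between their mice.

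**Figure D3:**
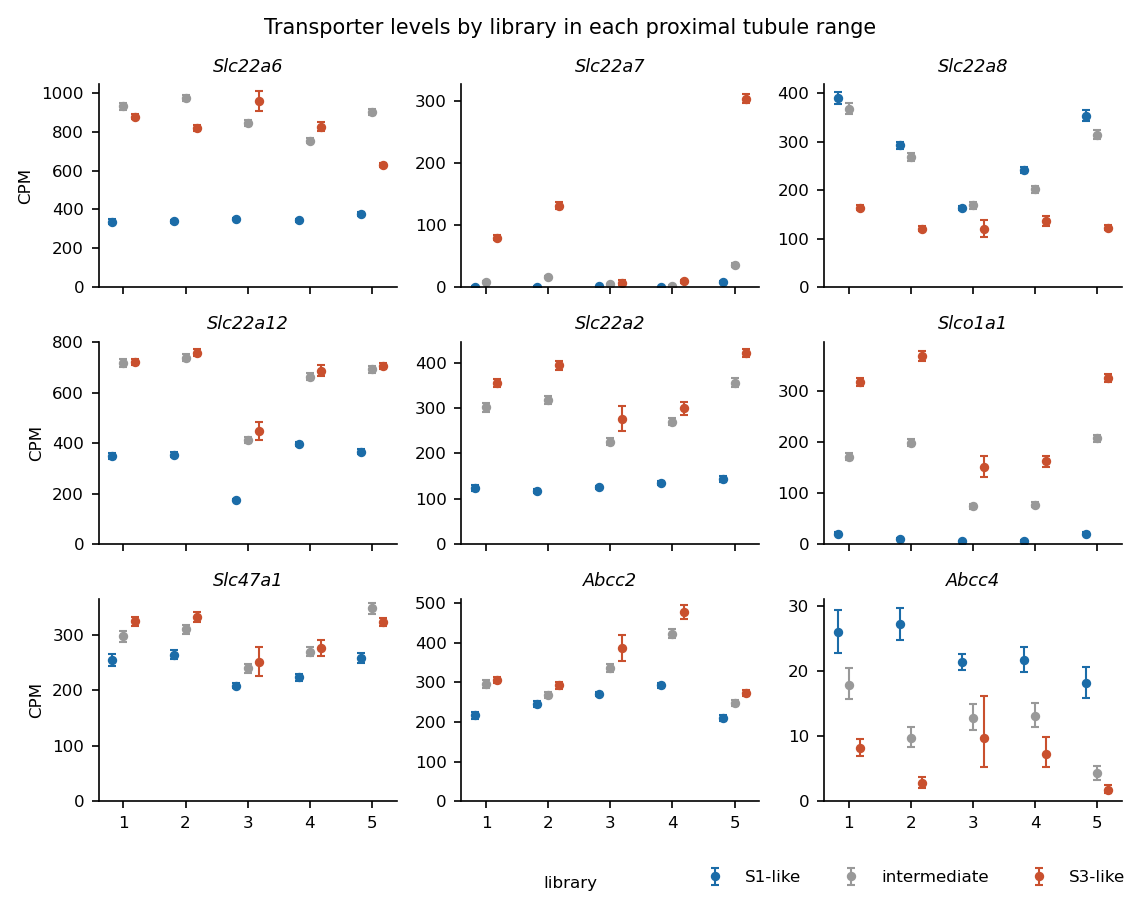
CPM of each gene by library number in S1-like, intermediate and S3-like cells, with exact Poisson 95% intervals. Slc22a7 in S3-like cells lies between 6.21 CPM in library 3 and 304 CPM in library 5, while Slc22a6 in S1-like cells stays between 337 and 375 CPM.

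Havcr1 (KIM-1) is a receptor that injured proximal tubule cells switch on. A Havcr1 UMI was present in 3481 of 46585 proximal tubule-like cells (7.47%, Clopper-Pearson 95% interval 7.24 to 7.71%) and in 49 of 3047 leukocytes (1.61%). Thinned to 1000 UMIs, the shares were 1.99% and 0.579%. In library 3 a Havcr1 UMI was in 43 of 926 leukocytes (4.64%), and the thinned shares there were 4.78% and 1.61%. In barcodes too shallow to be cells, Havcr1 was at 3.71, 23.4, 93.1, 12.6 and 0.636 CPM in libraries 1 to 5. The part of such background UMIs in the comparison was not tested. The bearing cells had a median of 7112 UMIs against 4926 in the free cells. Library 3 gave 2517 of the 3481, and libraries 1, 2, 4 and 5 gave 162, 414, 353 and 35. Havcr1 itself was at 8.76, 20.6, 59.7, 14.7 and 0.744 CPM in proximal tubule-like cells of the libraries.

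Over all libraries together, Slc22a7 and Slco1a1 were at least 2-fold lower in Havcr1-bearing than in Havcr1-free cells, 2 of 9 genes, against 0.412% of all 7762 genes. Slc22a7 was at 17.9 against 46.4 CPM, a log2 ratio of −1.37 (−1.50 to −1.24), and Slco1a1 at 62.8 against 131 CPM, −1.07 (−1.13 to −1.0). Without library 3 the count was 0 of 9, and without library 5 it was 1, and the share of all genes was not counted there. Library 3, which gave most of the bearing cells, was the lowest of the libraries in both genes over all proximal tubule-like cells. Within libraries 1 to 5 the log2 ratio was −0.31, −0.40, 0.47, 1.99 and 2.26 for Slc22a7 and −0.41, −0.31, 1.01, 0.23 and −1.74 for Slco1a1, so neither kept a direction. The Slc22a7 value of library 4 rests on few cells. There, cells with 1 Havcr1 UMI had 20 Slc22a7 UMIs, in 2.4% of 250 cells, and the 91 cells with 2 to 4 had 2. To set the groups side by side at the same make-up, the Havcr1-free level was weighted to the UMIs of the bearing cells over 12 strata of library and range with at least 20 cells of each kind. At this standardised level Slc22a7 was at 18.4 against 14.0 CPM (0.40) and Slco1a1 at 64.2 against 74.6 CPM (−0.22), and 0 of the 9 genes differed 2-fold in either direction. Among all 7803 genes, 0 were 2-fold lower and 0.436% 2-fold higher on this scale.

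Slc22a8 was lower in the Havcr1-bearing cells by each of these measures. It was at 159, 146, 149.5, 155 and 77.7 CPM in the Havcr1-bearing and 279.7, 234, 163, 219 and 240.5 CPM in the Havcr1-free cells of libraries 1 to 5, lower in the bearing cells of each. The log2 ratio was −0.81, −0.68, −0.12, −0.50 and −1.63 within the libraries, −0.59 (−0.64 to −0.55) over all and −0.36 standardised (149 against 191 CPM). The interval was below 0 in 11 of the 12 strata and the ratio in all 12. The difference was smallest in library 3, where the free cells were low too. With more Havcr1 UMIs in the cell Slc22a8 was lower still, at 225, 161, 138 and 106 CPM in cells with 0, 1, 2 to 4 and 5 or more. In library 3, which held 108 of the 188 cells with 5 or more, these levels were 163, 157, 144 and 112 CPM, and in library 2 234, 167, 113 and 118 CPM.

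Slc47a1 and Abcc2 were lower by a small step. Slc47a1 was at 282, 255, 199, 219.6 and 253 CPM in the bearing and 290.0, 295, 212, 245 and 313 CPM in the free cells of libraries 1 to 5, with a log2 ratio of −0.33 (−0.37 to −0.29) over all and −0.18 standardised. By Havcr1 UMIs it was at 270.2, 227, 205 and 166 CPM over all libraries. From 0 to 1 UMI it went from 212 to 207 CPM in library 3, which gave 1765 of the 2435 cells with 1, and from 290.0 to 309 CPM in library 1. Abcc2 had a log2 ratio of −0.053 (−0.087 to −0.019) over all and −0.15 standardised, with −0.14, −0.15, −0.016, −0.14 and 0.0090 within the libraries, and its level by Havcr1 UMIs was 281, 281, 265 and 216 CPM over all libraries. Slc22a8, Slc47a1 and Abcc2 were lower in all 12 strata, as were 2.92% of all genes, with the interval below 0 in 11, 7 and 8 of them. In the libraries, Slc22a8 and Slc47a1 were lower in 5 of 5, as were 13.8% of all genes. Cells with more Havcr1 UMIs were also deeper, with medians of 4926, 6539, 8128 and 11758.5 UMIs.

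For the other 4 genes the sign depended on the library. Over all libraries the log2 ratio was −0.086 for Slc22a6, −0.36 for Slc22a12, −0.18 for Slc22a2 and 0.26 for Abcc4. Slc22a6 was at 0.0029 on the log2 scale when standardised, with −0.25, −0.19, 0.46, 0.14 and −1.96 within libraries 1 to 5. The standardised value is weighted to the bearing cells, and 1594 of the 3481 were S1-like cells of library 3. Over the 12 strata Slc22a6 was lower in 8, with the interval below 0 in 8 and above 0 in 3. In library 3 it was higher in the bearing cells, at 559 against 406 CPM, and the Havcr1-bearing cells made up 18.3% of the S1-like, 31.1% of the intermediate and 32.3% of the S3-like cells of that library. Within these ranges of library 3 the log2 ratio of Slc22a6 was 0.39 (0.35 to 0.44), 0.083 (0.027 to 0.14) and −0.18 (−0.34 to −0.014). Slc22a12 was at 0.069 and Slc22a2 at 0.15 standardised, with 0.18, 0.074, 0.44, 0.12 and −0.28 and −0.037, −0.032, 0.45, 0.40 and 0.55 within the libraries. Abcc4 was at 0.02 standardised, with 0.18, 0.66, −0.21 and −0.29 within libraries 1 to 4, and no Abcc4 UMI was seen in the bearing cells of library 5. The values of library 5 rest on 35 cells, 27 of them S3-like. In that library Havcr1 UMIs were in 0.414% of proximal tubule-like cells and in 0 of 63 leukocytes, which allows a share of up to 5.69% (Clopper-Pearson 95% upper bound).

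**Figure D4:**
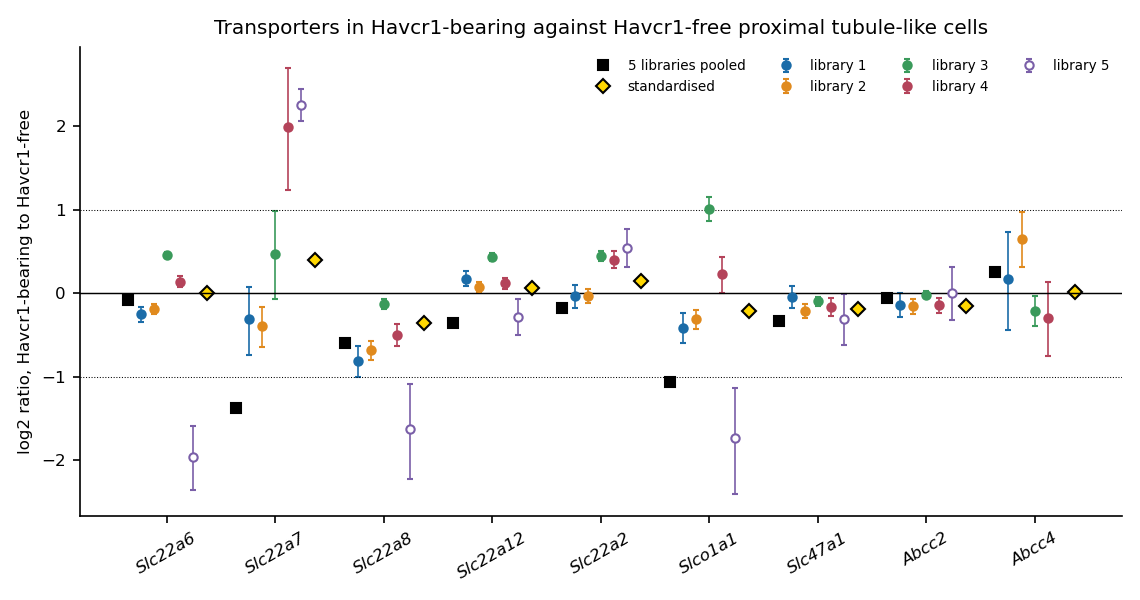
Log2 ratio of Havcr1-bearing to Havcr1-free proximal tubule-like cells for each gene, within each library with exact conditional 95% intervals (library 5, with 35 bearing cells, as open circles), for the 5 libraries pooled (squares) and standardised over library and range (diamonds); dotted lines mark 2-fold. The pooled squares of Slc22a7 and Slco1a1 lie below −1 while their diamonds lie at 0.40 and −0.22, and all points of Slc22a8 lie below 0.

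**Figure D5:**
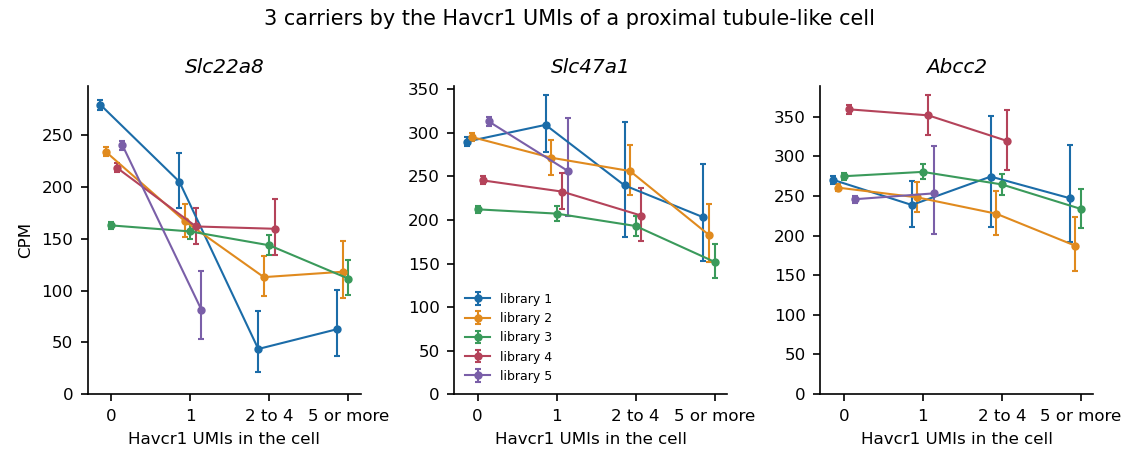
CPM of Slc22a8, Slc47a1 and Abcc2 by the number of Havcr1 UMIs in a proximal tubule-like cell, for each library where at least 20 cells had that number, with exact Poisson 95% intervals. Slc22a8 is lower in cells with 1 Havcr1 UMI than in cells with none in each library, from 163 to 157 CPM in library 3 where the intervals overlap, and from 240.5 to 81.5 CPM in library 5.

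Among 10 injury genes, with Havcr1 itself in the list, 8 reached 10 CPM and 6 were at least 2-fold higher in the Havcr1-bearing cells over all libraries, where 1.26% of all genes were. Havcr1 defines the groups and is 1 of them. Vcam1 was at 31.2 against 5.56 CPM, Sox9 at 45.5 against 8.59 CPM, Clu at 218 against 105 CPM and Spp1 at 12785 against 3848 CPM. Standardised over library and range, Sox9 (45.9 against 12.9 CPM) and Vcam1 (31.3 against 3.90 CPM) were at least 2-fold higher, beside Havcr1, while Spp1 was at 12850 against 7705 CPM and Clu at 213 against 224 CPM. In library 3, which held 2517 of the 3481 Havcr1-bearing cells, 2 of 7 injury genes were at least 2-fold higher, with 3 above and 4 below 0 on the log2 scale. In libraries 1, 2, 4 and 5 the counts were 5 of 8, 6 of 10, 7 of 8 and 2 of 4, Havcr1 included. Of the further organic-ion carriers, 14 reached 10 CPM and only Slc22a19 was 2-fold lower over all libraries, at 8.74 against 18.1 CPM, and when standardised 0 of 13 differed 2-fold. Within libraries 1 to 5, where 15, 16, 13, 12 and 18 reached 10 CPM, 1, 1, 0, 0 and 5 were at least 2-fold higher and 0, 0, 0, 0 and 3 lower. In library 5, 6.18% of all genes were so higher and 12% so lower. Over all libraries Slc22a13 was at 11.7 against 21.7 CPM, Slc22a28 at 49.2 against 84.9 CPM and Slc22a30 at 113 against 186 CPM. When standardised, the direction turned for Slc22a19 (8.98 against 5.07 CPM) and Slc22a13 (11.9 against 7.31 CPM), and Slc22a28 was at 49.0 against 64.9 CPM and Slc22a30 at 115 against 146 CPM. The pumps Abcg2 (449.9 against 483 CPM) and Abcc5 (19.9 against 18.4 CPM) differed by less than 2-fold over all libraries. In library 5, 1 of the 3 pumps at 10 CPM or more was 2-fold higher. Of the genes for energy supply and regulation, 0 of 10 differed 2-fold over all libraries, while 1 was 2-fold higher in library 2 and 1 was 2-fold lower in library 5. Slc13a1 was at 1842 against 970.0 CPM, Atp1b1, a subunit of the sodium pump, at 1215 against 977 CPM and Hnf4a at 154 against 190.3 CPM. Standardised, they were at 1863 against 1419, 1234 against 1219 and 154 against 165 CPM.

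A further 482 Havcr1-bearing cells passed no gate, 380 of them in library 3, and in these the carriers were low. Slc22a6 was at 58.4, Slc22a8 at 20.5, Slc22a2 at 40.2 and Slco1a1 at 3.79 CPM. The exporters Slc47a1 and Abcc2 were at 64.8 and 91.6 CPM, and Abcc4 was at 30.1 CPM, above its 14.6 CPM in proximal tubule-like cells. In 5066 Havcr1-free cells without a gate, Slc22a6 was at 44.7, Slc22a8 at 20.6, Slc22a2 at 16.5 and Slco1a1 at 4.46 CPM, and Slc47a1 at 29.9, Abcc2 at 28.4 and Abcc4 at 22.1 CPM. A cell low in the gate's markers does not pass it, so the comparison of proximal tubule-like cells holds no such cells.

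Over the 15 points made by 3 ranges in 5 libraries, log2 levels of Slc22a2 and Slco1a1 had a Pearson correlation of 0.97, the highest of the 36 pairs, and those of Slc22a7 and Abcc4 one of −0.91, the lowest. Slc22a6 and Slc22a8, the chromosomal neighbours, were at −0.36. Of all other genes, the most alike were Mep1a (0.99), Kap (0.99) and Dgkh (0.98) for Slc22a2, Azgp1 (0.99), Kap (0.98) and Slc7a13 (0.98) for Slco1a1 and C8a (0.97), Tc2n (0.96) and Scd1 (0.95) for Slc22a7. Slc7a13 is an S3 marker and helped to set the ranges. For Slc22a6 they were Cgref1 (0.97), 0610031O16Rik (0.95) and Cd302 (0.94), for Slc22a12 Serpinf2 (0.98), Mfsd4b5 (0.97) and Eci3 (0.97), and for Slc22a8 Gm15883 (0.94), Car14 (0.93) and Errfi1 (0.91). For the exporters they were Gm15638, Inmt and Ces1f (0.95, 0.95 and 0.94) with Slc47a1, Cbr3, Cdr2 and Sod3 (0.95, 0.92 and 0.91) with Abcc2, and Idh1, Gsta2 and Tamm41 (0.98, 0.97 and 0.95) with Abcc4. The points share libraries, ranges and depth, so these correlations are a description only.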

How the data were processed

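Single-cell libraries were measured by 10x Chromium 3′ sequencing of sham and UIR kidneys. The authors aligned reads to mm10 with Cell Ranger (6.0, per the submitters' processing notes) and deposited 1 matrix of raw UMI counts, 32285 genes by 10474594 barcodes, not filtered for cells. Counts on multi-mapping reads are not given in the sources used here. Whether reads that fit both Slco1a1 and a close paralog were left out or counted was not checked. The study's methods name 15 matrices, and this matrix held 5 libraries. The submitters' barcode and gene lists were used as names only, and 0 columns were left out.

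Cells were called in each library by a UMI threshold (0.1 of the 99th percentile of the top 3000 barcodes), then by a test against the profile of barcodes at ranks 45000 to 90000 (at least 500 UMIs, at most 20000 candidates, 10000 draws, adjusted p of at most 0.01). This called 70122 barcodes, of which 509 with fewer than 200 genes and 12588 with more than 25% mitochondrial counts, some failing on both, were left out, which kept 57483. Depth per library was 51070906 to 94744602 UMIs in kept cells. For each class, marker UMIs per 10000 were divided by the mean of its top 50 cells. A cell took the best class at 0.1 or more with at least 3 markers seen and no other class above 0.5 of it. Doublets were kept, because Scrublet (scanpy 1.11.5) at its own threshold marked 0% to 0.279% of a library and had not worked, and an alternative left out the highest scores at 0.8% per 1000 cells.

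Summed UMIs gave CPM (exact Poisson), log2 ratios (exact conditional binomial) and shares (Clopper-Pearson), all at 95%, with scipy 1.17.1. Groups of under 20 cells were not used, and genes at 10 CPM or more in either group formed the background. A count of 0 allows up to 3 UMIs. With suffixes untied to conditions there were no replicates and no p-values. Calling and ratios were tested on simulated data.

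The 9 genes, the lists (23 organic-ion carriers, 8 ABC pumps, 10 genes for energy supply, scaffold and regulators, 10 injury genes), the markers and the limits were chosen with earlier results of these data known. Named are all 9 genes, the 4 genes of each list with the largest log2 ratio at 10 CPM or more and the 3 genes most alike to each. 1 gene that this rule names, and 1 promoter motif, are not reported here. Alternatives covered calling, filters, gate, doublets, depth, averaging, background, scaling, ranges and libraries, and 7 were added after seeing the data. Others were planned for some results and run on further results too.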

Additional observations from a re-analysis of the deposited data

How the results depend on the processing

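The 8 genes at least 2-fold higher in proximal tubule-like cells than in every other class stayed 8 under all 13 alternatives. These alternatives were not planned for this count. The count of genes at least 2-fold apart between S3-like and S1-like cells stayed within 1.5 times its value of 6 under all 21, and each of the 9 ratios kept its direction. Of the 9, 9, 8, 8 and 9 genes at 10 CPM or more in libraries 1 to 5, 5, 5, 4, 3 and 3 were at least 2-fold higher. At least 2-fold lower were 2, 2, 1, 1 and 2. Among all genes 2.39% to 4.57% were so higher and 3.54% to 6.77% so lower. The count of 2 genes lower in Havcr1-bearing cells was not the same under all alternatives. It was 1 with the gate 2 times as high, 0 within S1-like cells, 1 within intermediate and 1 within S3-like cells, and 0 as the median of within-library ratios. Chosen after seeing the data, it was 0 when standardised over library and range, 0 in libraries 1, 2, 3 and 4 alone and 3 in library 5 alone, which had 35 Havcr1-bearing cells and where 12% of all genes were 2-fold lower, against 0.0892% to 0.959% in the others. With 1 library left out it lay between 0 and 2. Beside the main setting, the share of all genes was counted only for the standardised groups and for single libraries. The ratio of Slc22a7 turned to 0.47 as the median within libraries, 0.40 when standardised, and 0.47, 1.99 and 2.26 in libraries 3, 4 and 5 alone. That of Slco1a1 turned to 0.27 within S1-like cells and to 1.01 and 0.23 in libraries 3 and 4 alone. The ratio of Slc22a8 stayed between −1.63 and −0.12 over 26 alternatives and that of Slc47a1 between −0.45 and −0.041, while that of Abcc2 ran from −0.15 to 0.082, that of Slc22a6 from −1.96 to 0.46, that of Slc22a12 from −0.47 to 0.44, that of Slc22a2 from −0.28 to 0.55 and that of Abcc4 from −0.29 to 0.66. The count of genes with a 2-fold range of libraries was 3 within S3-like cells, or 2 of the 8 that reached 10 CPM there, and lay between 3 and 5 with 1 library left out. These alternatives were not planned for this count, and with a library left out the share of all genes was not counted. Thinning to 2000 UMIs left out 10598 proximal tubule-like cells, and leaving out the highest Scrublet scores removed 5108. No paired analysis was possible because no label numbers replicates and no test was run. Thinned to 1000 UMIs, the share of proximal tubule-like cells with a UMI was 2.95% for Slc22a7 (7.82% before) and 1.46% for Abcc4 (7.34% before).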

Other observations

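UMIs of the carriers were also seen in cells outside the comparisons. In the 9557 proximal tubule-like cells that could not be placed on the axis, at a median of 1039 UMIs, Slc22a6 was at 478 CPM, between its S1-like and S3-like levels. Slc47a1 at 157 CPM and Abcc2 at 137 CPM were below their level in each of the 3 placed ranges. Both were above leukocytes (19.6 and 14.6 CPM) and within the range of barcodes too shallow to be cells (84.9 to 222 and 55.0 to 184 CPM over the libraries). How far they are expression was not tested. Slc22a6 in S1-like cells (348 CPM) also lay within the range of such barcodes (196 to 366 CPM). In the 774 mixed cells, Slc22a6 was at 233, Slc22a12 at 167, Abcc2 at 95.3 and Slco1a1 at 38.4 CPM, each between the levels of leukocytes and of proximal tubule-like cells.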
